A study of Mus musculus with 36 samples.

Results

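Stiff StemBond hydrogel was compared with tissue culture plastic (TCP) in mouse embryonic stem cells (mESCs) kept for 48 h in serum + LIF. The comparison rests on the 3 libraries labelled as stiff at 48 h in serum + LIF and the 3 labelled as TCP at the same time and in the same medium, which are 6 of the 36 RNA sequencing libraries of the study, and it covers all 17702 genes that passed a filter on low counts. TCP was cultured in that single medium and at that single time only. The cells of all groups carried the genotype label 129m wt. The methods of the study name E14 and Rex1GFPd2 mESCs, among other cells, and do not say which line was sequenced. LIF is the cytokine that sustains self-renewal through STAT3, and every group compared gene by gene below received it. The fit of all 36 libraries and the shares of RNA classes also took in other groups. These were kept without LIF, with the MEK inhibitor PD03, or both. StemBond hydrogels are polyacrylamide gels whose added carboxyl chains bind the matrix protein covalently, and the methods have mESCs plated on gel or TCP coated with fibronectin. Plastic and gel therefore differ in rigidity, in chemistry and in how the fibronectin is held, and these cannot be told apart in this comparison. The sources used here do not say whether the 3 libraries of a group came from separate cultures. The p-values rest on the spread between libraries within groups, estimated over all 36 libraries, and this spread may be technical. Other libraries in serum + LIF, 3 each of soft hydrogel at 48 h, stiff hydrogel at 24 h and soft hydrogel at 24 h, are set beside the comparison where they bear on it.

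Cells read the rigidity of what they stand on through integrins, which gather into focal adhesions and pull on the substrate with actin and myosin. Pulling actin into filaments frees MRTF, the cofactor of the transcription factor SRF, which binds CArG boxes in the promoters of actin, smooth muscle and adhesion genes, and it lets YAP enter the nucleus and act on genes through TEAD factors. mESCs in serum + LIF hold a mixed state in which naive factors such as Esrrb, Klf2 and Nanog vary with the strength of LIF, ERK and Wnt signals, and cells at the edge of a colony can drift towards primitive endoderm, the extraembryonic layer next to the epiblast.

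The 6 libraries held between 13929917 and 19412658 counts. The tissue label was checked first. Pou5f1 ran from 524 to 612 CPM (counts scaled to the size of each library) over the 6 libraries, Sox2 from 262 to 286, Zfp42 from 455 to 535 and Sall4 from 952 to 1010, so that the pluripotency genes were abundant on both substrates. All 3 TCP libraries came from the same sequencing pool, as named in the sample descriptions, and so did 1 of the 3 stiff libraries. The other 2 came from a second pool, and the headers of the count table do not say which columns these are. For most of the gene lists described, results are therefore also given from 3 further fits with the pool in the model. Each took a different stiff library as the one that shared the pool of TCP and gave the other 2 a term of their own. The pools of the other groups were not modelled, so that each such fit compares 1 stiff library with TCP.

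Of the 17702 genes, 981 passed the threshold of an adjusted p under 0.05 (edgeR quasi-likelihood test, Benjamini-Hochberg adjustment over all genes tested), which is 5.54% of them. On stiff hydrogel 636 genes (3.59%) were lower than on TCP and 345 (1.95%) were higher. The changes were modest. The median log2 fold change was -0.44 among the lower genes, or 1.36-fold, and 0.33 among the higher genes, or 1.25-fold, against 0.00 for all genes tested. More than 2-fold changes were found in 80 of the lower and 22 of the higher genes. The 3 libraries of one substrate all lay above the 3 of the other in 22.7% of all genes tested, and in 628 of the 636 lower and 340 of the 345 higher genes. Among protein-coding genes of at least 5 CPM, the lower genes had a median exon length of 6563 bases, all genes tested 4763 and the higher genes 4002; the part of transcript length in the result was not tested. With the pool in the model, 121 of the lower genes passed in each of the 3 fits and 254 in none, and of the higher genes 31 passed in each and 199 in none. In those fits the comparison rests on a single stiff library, and pool and substrate cannot be told apart in the other 2.

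**Figure D1:**
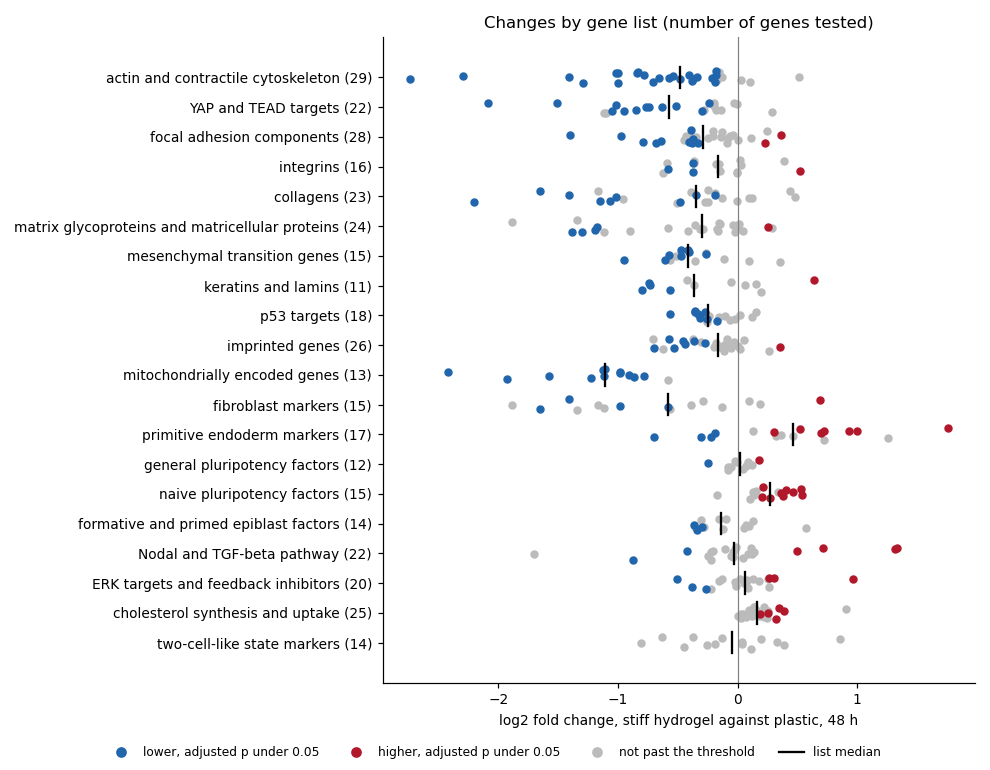
Log2 fold change of stiff hydrogel against TCP at 48 h for the tested members of 20 gene lists, 1 point per gene, with genes past the threshold in blue (lower) or red (higher), the others in grey and the median of each list as a black line. The actin and contractile list has 23 blue points of 29 and no red ones, while the naive pluripotency list has 9 red points of 15 and no blue ones.

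Most actin and contractile genes were lower on stiff hydrogel than on TCP. Of 29 tested members, 23 were lower, 0 were higher and 6 did not pass, and the median log2 fold change was -0.48. Acta1, Acta2, Tagln, Cnn1 and Flnc were shown by the study as examples from these samples, for soft against stiff hydrogel and not for stiff hydrogel against TCP. They were known before the list was drawn up, so that for them the list is not independent evidence of its direction. The largest falls of the list were in muscle actins. Actc1, the actin of heart muscle, measured 4.62, 2.9 and 1.86 CPM on TCP and 0.64, 0.626 and 0.205 CPM on stiff hydrogel (log2 fold change -2.74 ± 0.41 (SE), adjusted p = 3.3e-06). All 3 stiff libraries were below all 3 TCP libraries, although the gene is scarce and the values differ among themselves within both groups. Acta2, the actin of smooth muscle, measured 56.7, 71 and 63.4 CPM on TCP and 12.3, 15.7 and 11.4 CPM on stiff hydrogel (-2.29 ± 0.13, adjusted p = 6.8e-19), a 4.9-fold lower level with no overlap. Tagln, which bundles actin filaments in smooth muscle, measured 18.3, 17.7 and 19.5 CPM and 6.68, 6.54 and 7.57 CPM (-1.41 ± 0.13, adjusted p = 2.2e-11).

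Some promoters of this group hold the letters that SRF and TEAD are known to bind. By the rule, the 6 members with the largest change were Actc1, Acta2, Tagln, Lmod1, Cnn1 and Cald1, of which Tagln has no entry in the promoter table used. The 250 bases before the transcription start were taken from RefSeq on GRCm38.p6. Capitals mark an exact match to a CArG box (CC, 6 letters A or T, GG) or to the TEAD motif CATTCC on either strand (GGAATG on the other). Near matches to the CArG box, such as ccctatatgg in the printed Actc1 and Acta2 sequences, were neither marked nor counted. A CArG box lies 47 bases before the start in Actc1, and a TEAD motif is in Acta2, Lmod1 and the upstream promoter of Cald1, of 2 listed. Neither motif is in that window of Cnn1. Myl9, Acta1 and Cnn2, shown after them because they are lower members that hold a CArG box, were picked for that match. Myl6, another lower member, holds a box in 1 of its 2 listed promoters and is not printed.
Actc1 (chr2:114052876-114053125, minus strand): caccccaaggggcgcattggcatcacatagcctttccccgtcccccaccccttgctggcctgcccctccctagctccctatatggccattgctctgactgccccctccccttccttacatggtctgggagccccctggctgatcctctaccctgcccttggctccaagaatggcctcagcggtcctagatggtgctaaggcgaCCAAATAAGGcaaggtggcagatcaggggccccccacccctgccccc
Acta2 (chr19:34255374-34255623, minus strand): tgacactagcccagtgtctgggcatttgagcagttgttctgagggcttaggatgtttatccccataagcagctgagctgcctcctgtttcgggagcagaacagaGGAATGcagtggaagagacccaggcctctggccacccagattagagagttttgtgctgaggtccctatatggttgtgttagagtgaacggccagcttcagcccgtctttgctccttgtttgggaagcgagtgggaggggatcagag
Lmod1 (chr1:135324563-135324812, plus strand): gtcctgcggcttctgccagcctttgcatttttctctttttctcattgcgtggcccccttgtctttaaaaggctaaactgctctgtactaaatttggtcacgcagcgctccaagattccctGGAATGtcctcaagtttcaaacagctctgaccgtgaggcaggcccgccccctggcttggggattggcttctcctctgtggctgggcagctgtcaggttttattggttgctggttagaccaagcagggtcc
Cnn1 (chr9:22099003-22099252, plus strand): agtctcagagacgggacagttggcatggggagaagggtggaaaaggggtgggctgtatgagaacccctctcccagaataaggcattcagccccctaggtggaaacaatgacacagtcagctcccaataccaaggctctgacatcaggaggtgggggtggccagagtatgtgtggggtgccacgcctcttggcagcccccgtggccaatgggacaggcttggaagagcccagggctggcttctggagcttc
Cald1 (chr6:34598254-34598503, plus strand): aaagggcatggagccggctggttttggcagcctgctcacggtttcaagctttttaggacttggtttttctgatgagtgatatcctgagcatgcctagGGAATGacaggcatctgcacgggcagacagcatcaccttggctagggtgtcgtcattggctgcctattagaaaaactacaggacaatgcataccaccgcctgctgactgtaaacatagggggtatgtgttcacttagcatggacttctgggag
Myl9 (chr2:156775214-156775463, plus strand): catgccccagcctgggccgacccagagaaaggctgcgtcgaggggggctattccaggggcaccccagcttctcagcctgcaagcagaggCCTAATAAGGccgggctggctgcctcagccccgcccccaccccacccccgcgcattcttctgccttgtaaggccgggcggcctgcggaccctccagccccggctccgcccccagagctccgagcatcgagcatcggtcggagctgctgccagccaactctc
Acta1 (chr8:123894776-123895025, minus strand): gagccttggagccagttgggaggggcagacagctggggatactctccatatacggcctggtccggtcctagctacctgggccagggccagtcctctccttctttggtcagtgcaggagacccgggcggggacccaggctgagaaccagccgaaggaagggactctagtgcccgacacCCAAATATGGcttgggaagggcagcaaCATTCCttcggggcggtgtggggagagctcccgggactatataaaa
Cnn2 (chr10:79988350-79988599, plus strand): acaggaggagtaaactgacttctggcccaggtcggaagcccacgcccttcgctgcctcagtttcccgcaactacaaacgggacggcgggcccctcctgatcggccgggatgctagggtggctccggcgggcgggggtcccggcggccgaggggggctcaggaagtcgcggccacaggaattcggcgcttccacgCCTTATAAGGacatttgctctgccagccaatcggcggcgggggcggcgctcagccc

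Over all 32851 promoters of this length, 1.47% held a CArG box and 12.6% a TEAD motif. Among the lower members of the actin and contractile list, 5 of the 20 with a promoter entry held a CArG box and 9 a TEAD motif. Of the 461 genes lower on stiff hydrogel that have an entry, 4.12% held a CArG box and 20.4% a TEAD motif, against 2.79% and 13.5% of the 251 higher genes. A match says only that the letters are there.

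Genes for proteins that regulate or carry contraction were lower too. Lmod1, which starts actin filaments in smooth muscle, measured 2.4, 2.97 and 2.0 CPM on TCP and 0.995, 0.974 and 1.02 CPM on stiff hydrogel (-1.30 ± 0.26, adjusted p = 0.00069). Cald1, an inhibitor of actomyosin that is far more abundant, measured 222, 235 and 218 CPM and 105, 113 and 119 CPM (-1.0 ± 0.07, adjusted p = 3.2e-16). Tpm1, a tropomyosin that coats the filament, measured 269, 284 and 272 CPM and 149.9, 148 and 164 CPM (-0.83 ± 0.05, adjusted p = 1.7e-18). In none of the 3 did the substrates overlap. The calponin Cnn1 (-1.01 ± 0.20), the regulatory light chain Myl9 (-1.0 ± 0.10), the skeletal muscle actin Acta1 (-0.84 ± 0.15) and the filamin Flnc (-0.78 ± 0.07) were lower too. Changes were smaller in the members that every cell uses. Actb, cytoplasmic actin and among the most abundant genes, measured 5176, 5181 and 4985 CPM on TCP and 4371, 4505 and 4352 CPM on stiff hydrogel (-0.21 ± 0.04, adjusted p = 0.00068), and the nonmuscle myosin Myh9 changed by -0.38 ± 0.05. Actg1 (-0.16 ± 0.06, adjusted p = 0.13) and Srf itself (-0.13 ± 0.05, adjusted p = 0.13) did not pass. With the pool in the model, each of the 3 fits called 18 members lower, and 16 of the 23 passed in all 3. On stiff hydrogel at 24 h, which shares the pool of TCP but not the time, 15 of the 29 members were higher than on TCP and 3 lower. Over all 17702 genes tested, 2165 were higher and 2329 lower there.

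**Figure D2:**
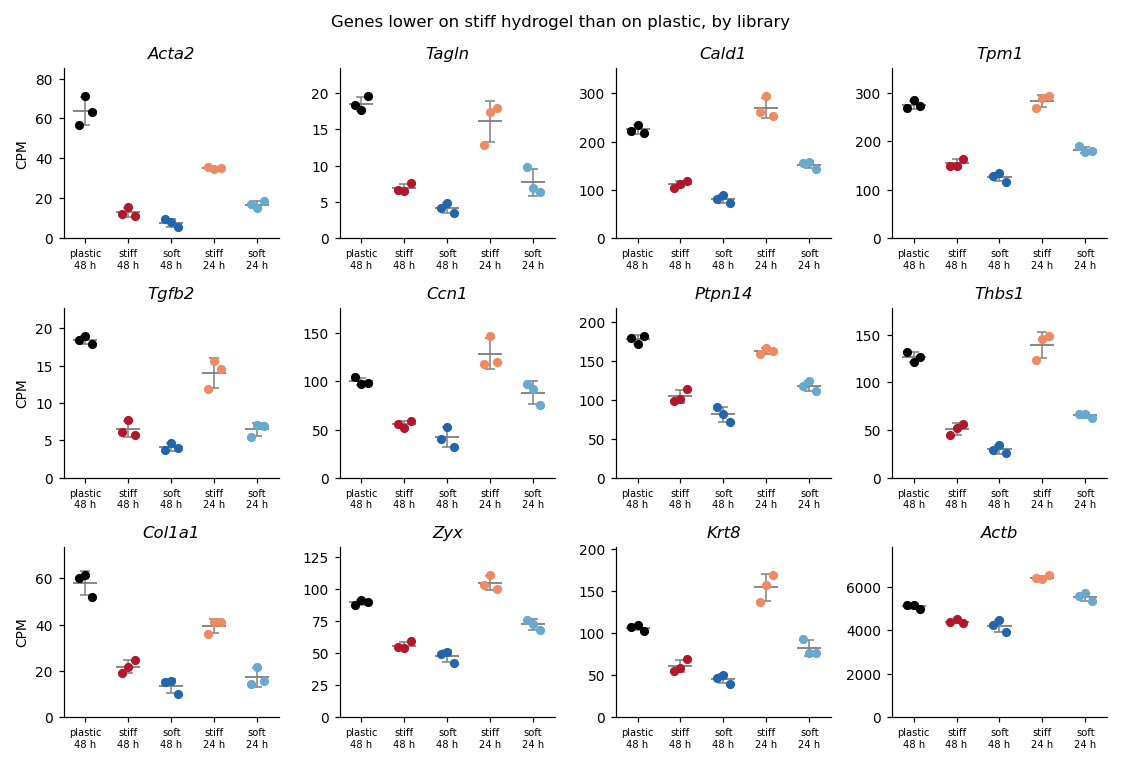
CPM per library (linear axes from 0) for 12 genes lower on stiff hydrogel than on TCP, with points for the 3 libraries of each group and grey lines for the mean ± SD; black is TCP, red and orange stiff hydrogel at 48 h and 24 h, and dark and light blue soft hydrogel at 48 h and 24 h. Acta2 lies at 56.7 to 71.0 CPM on TCP and 11.4 to 15.7 CPM on stiff hydrogel at 48 h, and Thbs1 and Cald1 on stiff hydrogel at 24 h lie near or above TCP.

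Of 22 targets of YAP and TEAD, 12 were lower on stiff hydrogel, 0 were higher and 10 did not pass, with a median log2 fold change of -0.57 over the list. Tgfb2, a TGF-beta ligand, measured 18.4, 19 and 18 CPM on TCP and 6.11, 7.79 and 5.68 CPM on stiff hydrogel (-1.51 ± 0.13, adjusted p = 4.2e-12). Ccn1, a matricellular protein and classic YAP target, measured 104, 97.5 and 98.1 CPM and 56.2, 51.1 and 58.5 CPM (-0.85 ± 0.09, adjusted p = 2.2e-09), and its relative Ccn2 measured 117, 107 and 114 CPM and 77.4, 77.4 and 81.1 CPM (-0.51 ± 0.05, adjusted p = 2.9e-10). These 3 genes had no overlap between the substrates. Negative regulators of the pathway were among the lower genes, namely the kinase Lats2 (-1.05 ± 0.15), which inactivates YAP, the scaffold Amotl2 (-0.63 ± 0.07) and the phosphatase Ptpn14 (-0.76 ± 0.06), which hold it in the cytoplasm. Ptpn14 measured 180.2, 171 and 182 CPM on TCP and 98.5, 101 and 114 CPM on stiff hydrogel (adjusted p = 5.0e-14). The receptor kinase Axl (-1.02 ± 0.17), tissue factor F3 (-0.95 ± 0.12) and Crim1 (-0.74 ± 0.10) were lower, as was the scarce Ankrd1, a muscle stress gene at 0.668, 1.15 and 0.898 CPM on TCP and 0.213, 0.139 and 0.256 CPM on stiff hydrogel (-2.09 ± 0.63, adjusted p = 0.036). Myof (-0.03 ± 0.06) and Igfbp3 (-0.20 ± 0.07) did not pass. In all 3 fits with the pool, 8 of the 12 were lower.

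Of 28 focal adhesion genes tested, 10 were lower, 2 were higher and 16 did not pass, and with the pool in the model 7 were lower and 0 to 1 higher. Zyx, which marks adhesions and stress fibres under tension, measured 87.8, 91.5 and 90.3 CPM on TCP and 54.4, 53.9 and 59.2 CPM on stiff hydrogel (-0.68 ± 0.07, adjusted p = 4.5e-11). Parva, which links integrin complexes to actin, measured 31.4, 35.3 and 33.6 CPM and 14.3, 16.5 and 19.6 CPM (-0.98 ± 0.10, adjusted p = 1.6e-10). Both separated the substrates fully, and so did Vcl (-0.41 ± 0.05) and Tln1 (-0.37 ± 0.05), the vinculin and talin of the adhesion core. Cav1, the coat protein of caveolae, measured 4.85, 7.32 and 5.52 CPM and 2.56, 1.39 and 2.66 CPM (-1.40 ± 0.26, adjusted p = 0.00015). Pxn (0.23 ± 0.06) and Tns1 (0.36 ± 0.08), the adapters paxillin and tensin 1, were higher on stiff hydrogel, Pxn in the full set but in 1 of the 6 fits that left out a library. Of 16 integrin genes, Itga3 (-0.59 ± 0.07), Itgav (-0.37 ± 0.06) and Itgb4 (-0.37 ± 0.09) were lower and Itgb7 (0.52 ± 0.14) was higher, against 1 to 3 lower and 0 higher with the pool. The fibronectin receptor genes Itga5 (-0.16 ± 0.06, adjusted p = 0.13) and Itgb1 (-0.14 ± 0.05, adjusted p = 0.13) did not pass.

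Of 23 collagen genes, 9 were lower, 0 were higher and 14 did not pass. With the pool in the model, 3 to 7 were lower, 3 of them in all 3 fits. Col1a1, a chain of fibrillar type I collagen, measured 60.3, 61.3 and 52.1 CPM on TCP and 18.9, 21.7 and 24.5 CPM on stiff hydrogel (-1.41 ± 0.13, adjusted p = 2.9e-11), and its partner chain Col1a2 measured 6.85, 7.81 and 6.21 CPM and 1.99, 2.02 and 2.56 CPM (-1.65 ± 0.22, adjusted p = 3.3e-07). The basement membrane chains Col4a1 (-0.19 ± 0.06) and Col4a2 (-0.34 ± 0.07) changed less. Serpinh1, the chaperone of collagen, changed by -0.60 ± 0.08 and Lox, which crosslinks it, by -1.18 ± 0.30. Of 24 matrix glycoproteins, 4 were lower, 1 was higher and 19 did not pass, and with the pool 2 to 3 were lower and 0 higher. Thbs1, a matricellular protein that activates TGF-beta, measured 132, 121 and 127 CPM on TCP and 45, 51.7 and 56.7 CPM on stiff hydrogel (-1.30 ± 0.07, adjusted p = 1.7e-18). The study had shown it as an example from these samples, for soft against stiff hydrogel. Fn1, which encodes the coating protein itself, measured 1049, 1059 and 1056 CPM and 1048, 1128 and 1079 CPM (0.04 ± 0.05, adjusted p = 0.74), so that its values overlapped. Of 18 laminin and basement membrane genes, 4 were lower and 2 higher, the latter being Lama1 (0.30 ± 0.06) and Nid1 (0.19 ± 0.05). With the pool, 0 to 1 of them were lower and 0 to 2 higher.

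Some intermediate filament and mesenchymal genes were lower as well. Krt8, a keratin of simple epithelia, measured 106, 109 and 103 CPM on TCP and 54.3, 58.6 and 69 CPM on stiff hydrogel (-0.80 ± 0.08, adjusted p = 1.6e-10), and its partner Krt18 measured 90.8, 98 and 92 CPM and 52.8, 56.6 and 59.2 CPM (-0.73 ± 0.07, adjusted p = 1.5e-10). Krt17 went the other way (0.63 ± 0.16). Of 11 keratin, lamin and related genes, 4 were lower and 1 was higher, or 3 to 4 and 0 with the pool. Of 15 mesenchymal transition genes, 8 were lower and 0 higher, among the former Vim, or vimentin (-0.40 ± 0.04), and the annexins Anxa2 (-0.61 ± 0.09) and Anxa3 (-0.95 ± 0.10), and 3 to 5 were lower with the pool. On stiff hydrogel at 24 h, 6 members of the keratin list and 9 of the mesenchymal list were higher than on TCP, and 1 and 3 were lower. Over all 17702 genes tested, 2165 were higher and 2329 lower there. Of 27 junction genes, 6 were lower, among them the desmosomal Dsp (-0.53 ± 0.06), and 2 higher, and Cdh1, or E-cadherin, did not pass (-0.06 ± 0.05, adjusted p = 0.60). With the pool, 2 to 3 junction genes were lower and 1 to 2 higher.

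Lower genes outside these lists included signals and membrane proteins. Csf1, the growth factor of macrophages, measured 26.7, 24.6 and 29 CPM on TCP and 10.7, 10.3 and 11.3 CPM on stiff hydrogel (-1.31 ± 0.13, adjusted p = 4.7e-11). Pmp22, a membrane protein of myelin and epithelia, measured 30.6, 25 and 30.03 CPM and 10.2, 9.46 and 10.3 CPM (-1.51 ± 0.14, adjusted p = 8.4e-12). Wnt4, a Wnt ligand, measured 8.24, 8.17 and 8.01 CPM and 2.77, 3.41 and 3.79 CPM (-1.28 ± 0.20, adjusted p = 6.9e-06). The values of these 3 genes did not overlap between the substrates, nor did those of the protocadherin Pcdh18 (-1.56 ± 0.21), Cuedc1 (-1.27 ± 0.15), the giant scaffold Ahnak (-0.76 ± 0.06) and the zyxin relative Lpp (-0.84 ± 0.06). Among genes also past the threshold in the 24 h libraries, the scarce Scel had the largest fitted change (-3.83 ± 0.69), at 0.78, 1.57 and 1.52 CPM on TCP and 0.142, 0.070 and 0.051 CPM on stiff hydrogel.

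Naive pluripotency factors were higher on stiff hydrogel in part of the network. Of 15 tested, 9 were higher, 0 were lower and 6 did not pass, with a median log2 fold change of 0.27. Esrrb, an orphan nuclear receptor of the naive network, measured 261, 239.7 and 243 CPM on TCP and 329, 323 and 329.5 CPM on stiff hydrogel (0.40 ± 0.05, adjusted p = 6.6e-09), a 1.32-fold higher level. Nr0b1, which binds Esrrb and Oct4, measured 103, 84.3 and 101 CPM and 147, 139.7 and 132 CPM (0.54 ± 0.06, adjusted p = 3.0e-09). Klf2, a Krüppel-like factor restrained by ERK, measured 127, 116 and 131 CPM and 171, 180.2 and 165 CPM (0.47 ± 0.06, adjusted p = 2.9e-07). In each of the 3 all stiff libraries were above all TCP libraries. Nr5a2 (0.38 ± 0.05), Tbx3 (0.36 ± 0.05), Tcl1 (0.53 ± 0.10) and Tfcp2l1 (0.27 ± 0.05) followed. Gbx2 (0.22 ± 0.06, adjusted p = 0.035) and Fgf4 (0.20 ± 0.06, adjusted p = 0.037) passed narrowly, and Gbx2 did not pass when any one of the 6 libraries was left out.

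Several core members of the network did not pass. Nanog measured 219, 177 and 202 CPM on TCP and 235, 212 and 219 CPM on stiff hydrogel (0.16 ± 0.06, adjusted p = 0.12), and its values overlapped. Klf4 (0.10 ± 0.05) and Zfp42, also named Rex1 (0.13 ± 0.06, adjusted p = 0.18), were not called. Among 12 general pluripotency genes only Dppa5a (0.18 ± 0.05) was higher and only Lin28a (-0.25 ± 0.05) lower, or 0 to 1 of each with the pool; Pou5f1, encoding Oct4, measured 557, 524 and 567 CPM and 612, 594 and 582 CPM (0.12 ± 0.07, adjusted p = 0.40). Of 14 formative and primed factors, Lef1 (-0.36 ± 0.08), Sox4 (-0.34 ± 0.09) and Pou3f1 (-0.30 ± 0.09), also named Oct6 and called in 1 of 6 fits with a library left out, were lower and 11 did not pass, Otx2 (-0.31 ± 0.10, adjusted p = 0.069) and Dnmt3b (-0.15 ± 0.06, adjusted p = 0.16) among them. With the pool in the model, 5 to 7 naive factors were higher, Esrrb, Nr0b1, Klf2, Nr5a2 and Tbx3 in each of the 3 fits, and the 3 formative genes passed in none.

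**Figure D3:**
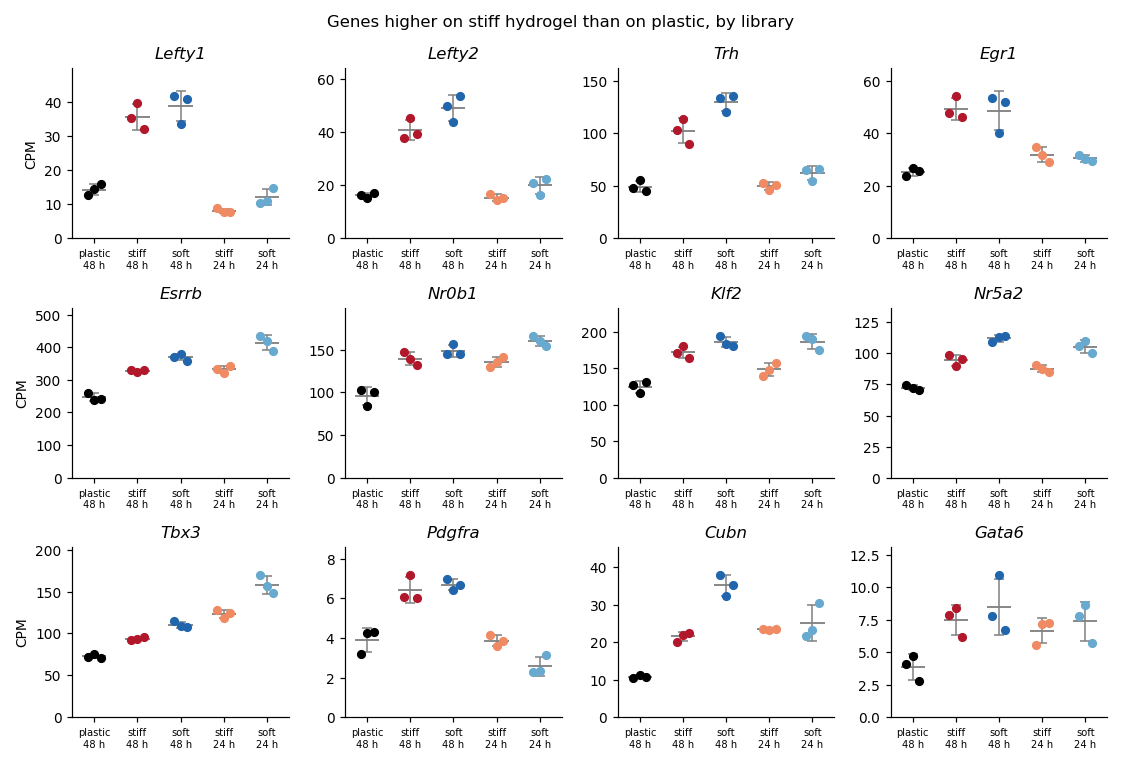
CPM per library (linear axes from 0) for 12 genes higher on stiff hydrogel than on TCP, with points for the 3 libraries of each group and grey lines for the mean ± SD; black is TCP, red and orange stiff hydrogel at 48 h and 24 h, and dark and light blue soft hydrogel at 48 h and 24 h. Lefty1 lies at 12.6 to 15.8 CPM on TCP, 32 to 39.6 CPM on stiff hydrogel at 48 h and below TCP on stiff hydrogel at 24 h.

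The largest rises among genes of at least 5 CPM were in the Lefty genes, which encode secreted inhibitors of Nodal and are themselves induced by it. Lefty2 measured 16.4, 15.3 and 17.1 CPM on TCP and 37.8, 45.4 and 39.5 CPM on stiff hydrogel (1.33 ± 0.10, adjusted p = 3.5e-14), a 2.52-fold higher level. Lefty1 measured 12.6, 14.5 and 15.8 CPM and 35.3, 39.6 and 32 CPM (1.32 ± 0.11, adjusted p = 6.3e-13). Neither gene overlapped between the substrates, and both were higher in all 3 fits with the pool. Of 22 genes of the Nodal and TGF-beta pathway, 4 were higher and 2 lower, or 4 and 0 to 1 with the pool. The activin subunit Inhbb (0.71 ± 0.10) and the inhibitory Smad7 (0.50 ± 0.08) were the other higher members, and Smad3 (-0.42 ± 0.09), a transducer of the signal, was among the lower ones. Nodal itself measured 43.9, 35.2 and 39.4 CPM and 41.2, 40.1 and 36.8 CPM (-0.01 ± 0.07, adjusted p = 0.97).

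Of 20 ERK-responsive genes, 3 were higher and 3 lower, and with the pool 1 to 2 were higher and 0 to 2 lower. Egr1, an immediate early gene, measured 23.6, 26.7 and 25.8 CPM on TCP and 47.7, 54.1 and 46.4 CPM on stiff hydrogel (0.96 ± 0.10, adjusted p = 6.0e-10), a 1.95-fold higher level with no overlap. The feedback inhibitor Spry4 was higher (0.31 ± 0.07), while the phosphatase Dusp4 (-0.51 ± 0.10) and Phlda1 (-0.38 ± 0.09) were lower and Dusp6 (-0.02 ± 0.08, adjusted p = 0.94) was not called. Of 16 AP-1 and other immediate early genes, Fosl2 (-0.66 ± 0.11), Jun (-0.42 ± 0.11) and Klf6 (-0.36 ± 0.06) were lower. Egr1 was the only higher member of that list, and 12 did not pass. With the pool, fewer of its members were lower. Of 18 genes of the LIF and STAT3 pathway, the feedback inhibitor Socs2 (0.35 ± 0.07) was higher along with Tfcp2l1 and Gbx2, the kinase Pim2 (-0.31 ± 0.07) was lower, and Socs3 (-0.12 ± 0.07, adjusted p = 0.41) and Stat3 (0.12 ± 0.06, adjusted p = 0.25) did not pass. With the pool, 0 to 2 genes of this list were higher and 0 to 1 lower. Trh, the thyrotropin-releasing hormone precursor, measured 47.5, 55.3 and 44.9 CPM and 103, 114 and 90.2 CPM (1.05 ± 0.09, adjusted p = 3.4e-12). Pltp, a phospholipid transfer protein (0.80 ± 0.11), Hmces, a guardian of abasic DNA (0.62 ± 0.07), and the nucleoside transporter Slc29a1 (0.46 ± 0.05) were higher as well.

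Of 17 markers of primitive endoderm tested, 7 were higher and 4 lower. With the pool in the model, 3 to 4 were higher and 1 lower. The higher ones included transcription factors and a receptor of the lineage. Gata6, the factor that sets the lineage, measured 4.12, 4.72 and 2.76 CPM on TCP and 7.89, 8.42 and 6.19 CPM on stiff hydrogel (0.93 ± 0.19, adjusted p = 0.00090), and Gata4 (0.70 ± 0.20), Sox7 (0.52 ± 0.16) and Pdgfra (0.72 ± 0.19) were higher as well, although Sox7 lost its call whichever library was left out. Cubn, an endocytic receptor of visceral endoderm, measured 10.4, 11.2 and 10.8 CPM and 20.1, 21.9 and 22.5 CPM (1.0 ± 0.16, adjusted p = 1.3e-05), whereas its partner Lrp2, or megalin, measured 342, 337 and 332 CPM and 192, 206 and 223 CPM (-0.70 ± 0.06, adjusted p = 2.7e-13). Both genes separated the substrates fully, in opposite directions. Dab2 (-0.30 ± 0.09), Sparc (-0.22 ± 0.06) and Col4a1 were lower. Sox17 averaged under 1 CPM (1.26 ± 0.42, adjusted p = 0.066), and 6 of the 20 listed genes, Sox17, Hnf4a, Amn, Apoa1, Afp and Ttr, averaged under 1 CPM. Summed over the list, the level was 862 to 875 CPM on TCP and 699 to 760 CPM on stiff hydrogel, of which Lrp2 alone made up 332 to 342 CPM and 192 to 223 CPM, while 13 of the 17 tested genes had a positive log2 fold change.

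Markers of other cell types that a culture could hold were given the same look. The fibroblast list summed to 95.3 to 111 CPM on TCP and 56.0 to 63.5 CPM on stiff hydrogel, of which Col1a1 alone made up 52.1 to 61.3 CPM and 18.9 to 24.5 CPM. In that list 4 of 15 tested genes were lower, Col1a1, Col1a2, Cd248 (-0.98 ± 0.24) and Pdgfrb (-0.58 ± 0.17), while Thy1 was higher (0.69 ± 0.15), or 2 lower and 0 to 1 higher with the pool. Of the 20 listed, 9 averaged under 1 CPM, among them Lum, Postn and Prrx1, and Dpt was at 0 in all 6 libraries. The trophoblast list summed to 256 to 269 CPM on TCP and 193 to 219 CPM on stiff hydrogel, with Gata3 (-0.68 ± 0.10), Krt18 and Fgfr2 (-0.27 ± 0.07) lower of 14 tested (2 to 3 with the pool), and Elf5, Plac1 and Prl3d1 under 1 CPM. The neural progenitor list summed to 141 to 153 CPM and 123 to 130 CPM, the mesoderm and endothelial list to 88.8 to 91.1 CPM and 85.5 to 88.1 CPM, and the two-cell-like list to 282 to 294 CPM and 281 to 307 CPM, the 2 substrates overlapping in the last of these. In bulk RNA, fewer cells of a type and less RNA per cell cannot be told apart, and the part of such cells in the results above was not tested.

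Metabolic and growth lists were examined next. Of 25 genes of cholesterol synthesis and uptake, 5 were higher and 0 lower, and all 25 had a positive log2 fold change, with a median of 0.16. With the pool, fewer were higher. On stiff hydrogel at 24 h 1 was higher and 7 lower than on TCP, against 2165 higher and 2329 lower of all 17702 genes tested. Fdft1, which commits the pathway to sterols, measured 42.3, 41.7 and 43.4 CPM on TCP and 56.2, 55.8 and 55 CPM on stiff hydrogel (0.39 ± 0.06, adjusted p = 1.6e-05). Of 18 p53 targets, 8 were lower and 0 higher, against 2 to 5 lower with the pool. They were led by Plk2 (-0.57 ± 0.07) and Ccng1 (-0.36 ± 0.05), and Mdm2, the inhibitor of p53, changed by -0.27 ± 0.05. The cell cycle inhibitor Cdkn1a did not pass (-0.16 ± 0.09, adjusted p = 0.37). Of 26 imprinted genes, 7 were lower and 1 higher, against 1 to 4 and 0 with the pool. Igf2, the fetal growth factor, measured 188, 217 and 202 CPM on TCP and 108, 116 and 148 CPM on stiff hydrogel (-0.70 ± 0.09, adjusted p = 3.3e-07), and its neighbour H19 (-0.45 ± 0.10), Peg3 (-0.53 ± 0.06) and Peg10 (-0.44 ± 0.06) were lower as well. Of 31 cell cycle regulators, Ccnd2 (0.40 ± 0.07) and Ccne1 (0.20 ± 0.05) were higher, 1 was lower and 28 did not pass. With the pool, fewer were higher.

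RNA of the mitochondrial genome stood apart in the TCP libraries. It took 2.27% to 2.92% of all counts there, 1.11% to 1.25% in the stiff libraries and at most 1.75% in any of the 33 libraries other than TCP. Of 13 protein-coding genes of that genome, 12 were lower on stiff hydrogel, and so were both ribosomal RNAs. With the pool, 5 to 8 of the 13 were lower. mt-Rnr1, the small ribosomal RNA, measured 1914, 2521 and 1863 CPM on TCP and 599.6, 629 and 578 CPM on stiff hydrogel (-1.80 ± 0.15, adjusted p = 3.0e-13), and mt-Nd1, a subunit of complex I, measured 4453, 5561 and 4262 CPM and 2077, 1903 and 2129.9 CPM (-1.22 ± 0.19, adjusted p = 4.3e-06). The predicted genes of at least 5 CPM with the largest falls, Gm10925 (-2.14 ± 0.19), Gm28437 (-1.40 ± 0.20) and Gm28661 (-1.39 ± 0.22), are near-identical nuclear copies of mitochondrial sequence, and reads can be split between copy and original. The most abundant gene of the table, Gm26917, whose locus holds ribosomal RNA sequence, measured 33046, 25477 and 30712 CPM on TCP and 17002, 16147 and 18283 CPM on stiff hydrogel (-0.79 ± 0.16, adjusted p = 0.00064). Together with Gm42418, of the same kind, it took 2.83% to 3.67% of the counts on TCP and 1.87% to 2.13% on stiff hydrogel, and at most 2.46% in the 33 other libraries. The stiff libraries of 24 h, which share the pool of TCP, held 1.26% to 1.54% mitochondrial counts. When these genes and the Rn7s RNAs were left out before scaling, an alternative chosen after the data were seen, 297 genes were higher and 631 lower, and 23 members of the actin list were lower, 7 rather than 9 naive factors were higher, 6 rather than 7 primitive endoderm markers and 2 rather than 3 ERK-responsive genes. The part of mitochondrial and ribosomal RNA in the other results was not tested.

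**Figure D4:**
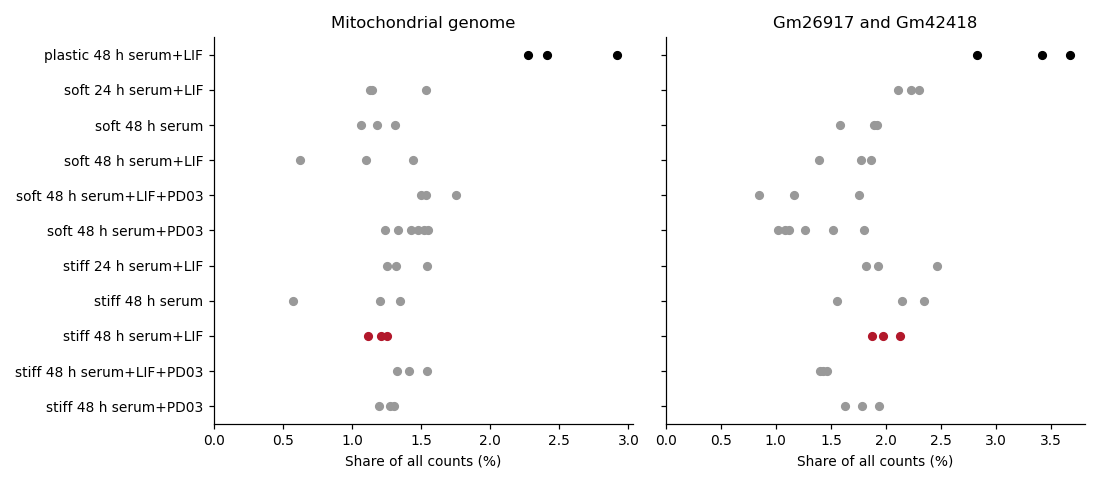
Share of all counts (%, axes from 0) taken by the mitochondrial genome (left) and by Gm26917 and Gm42418, whose loci hold ribosomal RNA sequence (right), with 1 point per library for the 11 groups; TCP is black, stiff hydrogel at 48 h in serum + LIF red and the other groups grey. The TCP points, at 2.27% to 2.92% on the left and 2.83% to 3.67% on the right, lie above those of all 33 other libraries.

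The genes were then looked up in libraries of neither group of the comparison. These libraries shared its fit, and with it the filter, the scaling and the estimate of spread, so that the lookup is not fully independent. Soft hydrogel was set against stiff hydrogel at 24 h in serum + LIF, 3 libraries each, all of the pool of TCP. There 628 of the 17702 genes passed the threshold (3.55%), 446 lower on soft hydrogel (2.52%) and 182 higher (1.03%). Of the 636 genes lower on stiff hydrogel than on TCP, 245 were lower on soft than on stiff hydrogel at 24 h, which is 38.5% of the first list and 54.9% of the second, and 2 were higher. Of the 345 higher genes, 51 were higher at 24 h, or 14.8% of the first list and 28% of the second, and 1 was lower. The log2 fold change at 24 h was below 0 for 88.8% of the lower genes, for 21.2% of the higher genes and for 50.4% of all genes tested. Of the actin list, 23 members were lower on soft than on stiff hydrogel at 24 h, with Acta2 at -1.06 ± 0.13 (adjusted p = 2.7e-08) and Thbs1, of the matrix list, at -1.09 ± 0.07 (adjusted p = 1.2e-15). Of the 15 naive factors, 11 were higher there, Esrrb (0.32 ± 0.05) and also Nanog (0.35 ± 0.06, adjusted p = 2.9e-05) and Klf4 (0.36 ± 0.05) among them. No gene of the mitochondrial genome passed at 24 h, and Egr1 (-0.07 ± 0.10, adjusted p = 0.84) and Cubn (0.11 ± 0.14, adjusted p = 0.80) did not pass either. Of the primitive endoderm markers, 4 were lower and 0 higher on soft than on stiff hydrogel at 24 h.

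**Figure D5:**
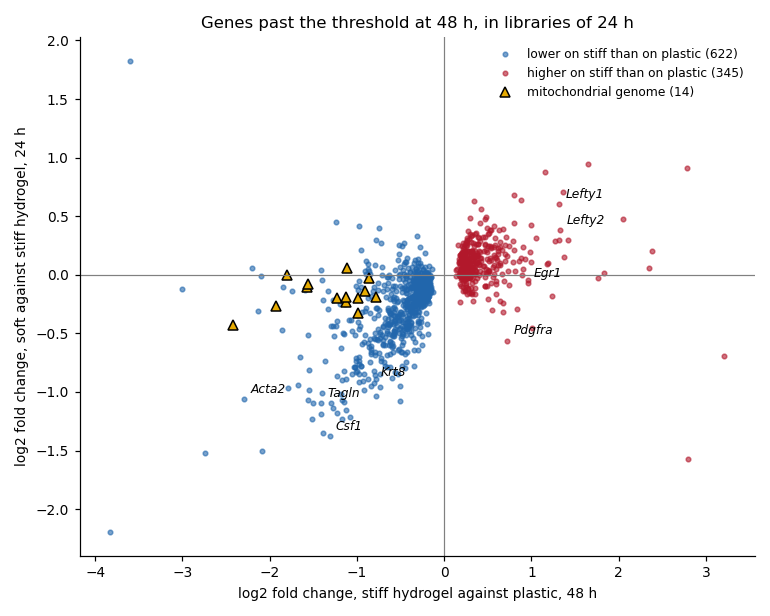
Log2 fold change of stiff hydrogel against TCP at 48 h (x axis) and of soft against stiff hydrogel at 24 h (y axis) for the 981 genes past the threshold at 48 h, with lower genes in blue, higher genes in red and genes of the mitochondrial genome as yellow triangles. The groups of the 2 comparisons share no library, but both comparisons come from the same fit. On the y axis 88.8% of the lower genes lie below 0, and the triangles lie between -0.43 and 0.057.

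Soft hydrogel at 48 h shared the medium and time of the comparison but no pool with TCP. Against the same TCP libraries 2083 genes (11.8%) passed there. Acta2 was at -3.02 ± 0.14 on soft hydrogel and -2.29 ± 0.13 on stiff hydrogel, Thbs1 at -2.09 ± 0.08 and -1.30 ± 0.07, Col1a1 at -2.10 ± 0.14 and -1.41 ± 0.13, Esrrb at 0.58 ± 0.05 and 0.40 ± 0.05, Lefty2 at 1.60 ± 0.10 and 1.33 ± 0.10, and Egr1 at 0.94 ± 0.10 and 0.96 ± 0.10. The 2 comparisons share the TCP libraries, so that these values are given side by side only.

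Stiff hydrogel at 24 h, the group of the same pool as TCP, was also set against TCP, although its cells had been 24 h rather than 48 h on the substrate and the times cannot be told apart from the substrates. Here 4494 of the 17702 genes tested passed, 2165 higher and 2329 lower. This is a larger share of all genes than the 5.54% of the comparison at 48 h, and the list counts stand beside it. Of the 29 actin and contractile genes 3 were lower and 15 higher, of the 22 YAP and TEAD targets 2 were lower and 6 higher, and of the 28 focal adhesion genes none was lower and 13 were higher. Acta2 averaged 35.3 ± 0.481 CPM (SD, n = 3) on stiff hydrogel at 24 h, between TCP (63.7 ± 7.17) and stiff hydrogel at 48 h (13.1 ± 2.26). Cald1 averaged 269 ± 21.1 CPM, above the 225 ± 8.97 CPM of TCP. By contrast, 11 of the 15 naive factors were higher and 11 of the 13 mitochondrial protein-coding genes lower on stiff hydrogel at 24 h than on TCP at 48 h. Of the 636 lower genes, 186 were lower, 121 higher and 329 not past the threshold on stiff hydrogel at 24 h, and of the 345 higher genes 192 were higher, 14 lower and 139 not past it. Lefty1 averaged 8.02 ± 0.627 CPM on stiff hydrogel at 24 h, below the 14.3 ± 1.62 CPM of TCP. The lower level of the actin and YAP lists was therefore seen with the stiff libraries of 48 h. With those of 24 h, set against the same TCP libraries of 48 h, few members were lower and more were higher.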

How the data were processed

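RNA from mESCs was extracted with an RNeasy kit including removal of genomic DNA, and libraries were made with a NuGen kit, per the labels. The authors deposited 1 table of raw read counts per gene for all 36 libraries (49671 Ensembl genes). The submitters' processing notes name STAR 2.5.2a, HTSeq, DESeq and the build mm10; their roles are not described there, and the strand setting of the counting is not given in the sources used here. Columns were assigned to groups by their headers, which carry no replicate number, so that library numbers are only names. Reads of near-identical copies or of overlapping genes cannot be separated in such counts.

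Symbols and coordinates came from GENCODE M21 (GRCm38) for 49412 genes. CPM were computed from the counts with library sizes scaled by TMM. The deposited counts of the 36 libraries were fitted with 1 coefficient per group by edgeR 4.0.16 (glmQLFit, glmQLFTest; R 4.3.3, limma 3.58.1) after filterByExpr, which left 17702 genes holding 99.9% of the counts. p-values were adjusted over these genes (Benjamini-Hochberg, threshold 0.05), and errors are SEs of log2 fold changes unless called SD. Each SE was computed back from the test, as the absolute log2 fold change over the square root of the F statistic. The script was tested on simulated data. Totals ran from 10405696 to 26635239 counts. Copies were looked for only among libraries of the same group, in TCP and the hydrogel groups in serum + LIF without PD03, and none was found. Alternatives were DESeq2 1.42.0, RLE and upper-quartile scaling, other filters, fewer libraries, the pool as a term, stiff libraries of 24 h, a test against a fold change of 1.2, leaving out each library, and, added after the data were seen, leaving out mitochondrial and ribosomal-RNA-like genes.

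Genes named are members of 39 gene lists, or, per direction, the 15 largest changes (at least 5 CPM, no overlap, no predicted gene), the 10 smallest p-values, the 10 most abundant, the 10 largest also called at 24 h, and 5 predicted genes. The comparison and lists were chosen with earlier results of these data known. Promoters are those of RefSeq on GRCm38.p6.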

Additional observations from a re-analysis of the deposited data

How the results depend on the processing

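Scaling by RLE size factors or the upper quartile, other filters on low counts, DESeq2, and fits of 6 or 9 libraries gave 861 to 1138 changed genes against 981, 285 to 436 higher and 550 to 715 lower, and none of the genes named changed direction. The upper quartile moved the split to 406 higher and 583 lower. A test against a fold change of 1.2 left 203 genes, 30 higher and 173 lower. With the pool as a term, 418, 368 or 230 genes passed, 102, 111 or 51 higher and 316, 257 or 179 lower, as stiff library 1, 2 or 3 was taken to share the pool of TCP. Leaving out 1 library left 637 to 764 genes, 185 to 238 higher and 438 to 529 lower, with the fewest higher genes without stiff library 2 (185), stiff library 1 (199), TCP library 3 (217) or TCP library 1 (227). For soft against stiff hydrogel at 24 h that range was 416 to 522, lowest without stiff library 2 of 24 h. With a library left out, list counts fell from 9 to between 6 and 8 for lower collagens, from 6 to 3 to 5 for lower junction genes, from 5 to 3 to 4 for higher cholesterol genes and from 7 to 4 to 6 for higher primitive endoderm markers, and ran from 1 to 4 for lower laminins and for lower primitive endoderm markers, each 4 with all libraries. Among the genes named as changed, Gbx2 and Sox7 passed in none of the 6 such fits, Ankrd1, Pou3f1 and Pxn in 1, Ccne1, Col4a1, Dab2, Dppa5a, Fgf4, Gata4, Itgb7 and Pdgfrb in 2, Cd248, Nid1 and Sox4 in 3, and Fgfr2, Jun, Krt17, Pdgfra, Itgb4, Lox, Phlda1, Sparc and Thy1 in 4 or 5. Leaving out 1 library moved Nodal between -0.093 and 0.075 and Dusp6 between -0.11 and 0.048. With the pool as a term, genes that had not passed turned sign, namely Fn1 at -0.0091 (stiff library 1), Nodal at 0.058 (stiff library 1), Nodal at 0.018 (stiff library 2), Myof at 0.0056 (stiff library 3). 

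With the stiff libraries of 24 h in place of those of 48 h, 4494 genes passed, 2165 higher and 2329 lower, and 60 of the genes named turned sign, called or not. The log2 fold change against TCP was then above 0 for Phlda1 1.06, Anxa2 0.68, Wnt4 0.66, Acta1 0.61, Myof 0.57, Igfbp3 0.55, Krt8 0.54, Fosl2 0.51, Itga3 0.50, Cdkn1a 0.46, Parva 0.45, Flnc 0.43, Krt18 0.42, Myl9 0.42, Anxa3 0.41, Itgb4 0.37, Dsp 0.37, Itga5 0.37, Gata3 0.36, Ccn1 0.36, Jun 0.34, Serpinh1 0.34, Ankrd1 0.33, Actb 0.33, Sparc 0.33, Col4a2 0.29, Csf1 0.28, Klf6 0.27, Cald1 0.26, Srf 0.25, Zyx 0.22, Lpp 0.21, Col4a1 0.21, Myh9 0.21, Ahnak 0.21, Dusp6 0.20, Thbs1 0.14, Dusp4 0.14, Tln1 0.10, Actg1 0.10, Plk2 0.094, Cd248 0.068, Cdh1 0.054, Itgb1 0.048, Vcl 0.046, Tpm1 0.042, Ccn2 0.032, Axl 0.029, Amotl2 0.026, Cuedc1 0.021, Lats2 0.015 and Peg10 0.0024, and below 0 for Pdgfra -0.0069, Fdft1 -0.028, Pltp -0.030, Lefty2 -0.079, Stat3 -0.11, Pou5f1 -0.12, Zfp42 -0.12 and Lefty1 -0.83. Time and pool differ between these settings, and with the stiff libraries of 24 h time and substrate cannot be told apart. The cause was not tested.

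No paired analysis was possible because the columns of the count table carry no replicate numbers. Fold changes of genes near 1 CPM, such as Ankrd1 and Scel, rest on few counts, and for a gene that did not pass no difference was detectable at these depths with 3 libraries a group.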
